A study of Mus musculus with 8 samples.

Results

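The platelet-derived growth factor (PDGF) family of the mouse has 4 ligand genes, Pdgfa, Pdgfb, Pdgfc and Pdgfd, and 2 receptor genes, Pdgfra and Pdgfrb, and all 6 were followed here in RNA-seq of whole aortas. Members were found by gene name among the 48607 assembled loci of the deposited table, where 13 loci carried a member's name. A locus on the annotated strand was used for each gene, and all 6 were among the 20506 loci with at least 1 FPKM (fragments per kilobase of assembled transcript, scaled to library depth) in at least 3 libraries, which were tested. Both groups of mice lacked apolipoprotein E (ApoE-/-) and were fed a Western diet for 12 weeks, and ApoE-/-NPRC-/- mice carried in addition a germline frameshift in the first exon of Npr3, which encodes the natriuretic peptide receptor C, made by CRISPR/Cas9 in C57BL/6 mice. The study states an age and sex for the ApoE-/- mice it bought, and repeats neither for the littermates compared here. The titles give 5 ApoE-/- libraries, 1 to 5, and 3 ApoE-/-NPRC-/- libraries, 1 to 3. The study states 5 mice in each group for its RNA-seq, so the comparisons here rest on fewer ApoE-/-NPRC-/- libraries.

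The title and the genotype entry named different genotypes for 4 of the 8 libraries. ApoE-/- 4 and 5 were entered as ApoE-/-NPRC-/-, and ApoE-/-NPRC-/- 1 and 2 were entered as ApoE-/-. The headings of the deposited values name the genotype of the title for all 8 libraries. Groups were therefore formed by title and every comparison was repeated by genotype entry, which again gave 5 libraries against 3. Total counts ran from 62969165 to 86693276, and no library was a repeat of another. Npr3 could not decide between the labels, since a frameshift need not remove the transcript: its log2 fold change of ApoE-/-NPRC-/- over ApoE-/- was 0.10 by title (standard error, SE, 0.28) and 0.16 by genotype entry (SE 0.28). Here and below, p-values measure the spread between these libraries, which are taken as separate aortas.

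PDGF ligands are secreted dimers that bring receptor chains together, after which the receptors phosphorylate themselves on tyrosine and start the Ras-MAPK, phosphatidylinositol 3-kinase and phospholipase C pathways. In arteries the family is known above all as a growth and migration signal for smooth muscle cells and as the signal by which endothelium recruits mural cells. PDGF-A, PDGF-B and PDGF-C act on the alpha receptor, whereas PDGF-B and PDGF-D act on the beta receptor. PDGF-C and PDGF-D are secreted in a latent form and need proteolytic removal of a CUB domain, while PDGF-A and PDGF-B are processed inside the cell.

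All 6 genes were detected in every aorta library, and Pdgfrb was the most abundant in each library on the deposited scale. The FPKM of Pdgfrb was 49.4 ± 5.59 (SD, n = 8), that of Pdgfra 8.46 ± 2.50, that of Pdgfa 7.87 ± 1.42, that of Pdgfc 3.13 ± 1.01, that of Pdgfb 2.16 ± 0.285 and that of Pdgfd 1.15 ± 0.188. Pdgfrb exceeded Pdgfra in 8 of 8 libraries (two-sided exact sign-flip permutation test on log2(FPKM + 1), adjusted p = 0.013 over the 5 pairs of neighbours). Pdgfra and Pdgfa could not be ordered, with Pdgfra higher in 4 of 8 libraries (exact permutation, adjusted p = 0.56). Below them, Pdgfa exceeded Pdgfc in 8 of 8 libraries (exact permutation, adjusted p = 0.013), Pdgfc exceeded Pdgfb in 7 of 8 (exact permutation, adjusted p = 0.029) and Pdgfb exceeded Pdgfd in 8 of 8 (exact permutation, adjusted p = 0.013). An unadjusted p of 0.0078 is the smallest that 8 libraries allow. The neighbours were taken from the order of the means in these same libraries. These p-values therefore describe how steady that order was and do not test it independently.

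This order depends on the length behind each FPKM. The ratio of counts to FPKM gave the assembled exon length that the authors' values were divided by, and that length often held far more than annotated exons. For Pdgfa (chr5:138976014-138997370, minus strand, GRCm38) it was 3.12 kb and for Pdgfrb (chr18:61045150-61085061, plus strand) 5.48 kb, the same as the summed annotated exons. For Pdgfra (chr5:75152292-75198215, plus strand) it was 17.2 kb against 10.0 kb of annotated exon, for Pdgfb (chr15:79995874-80014977, minus strand) 12.3 kb against 4.16 kb, and for Pdgfc (chr3:81036416-81214040, plus strand) 24.8 kb against 5.09 kb. Pdgfd (chr9:6168584-6378845, plus strand) stood farthest apart, with 76.1 kb against 3.15 kb, or 24.1 times the annotated length. With the same counts divided by annotated exon length, Pdgfrb was still highest at 49.4, but Pdgfd came second at 27.7 ± 4.56 (SD, n = 8), before Pdgfc (15.2 ± 4.90), Pdgfra (14.5 ± 4.29), Pdgfa (7.87 ± 1.42) and Pdgfb (6.41 ± 0.845). On that scale Pdgfc and Pdgfra could not be ordered (Pdgfc higher in 3 of 8 libraries, exact permutation, adjusted p = 0.63), nor could Pdgfa and Pdgfb (Pdgfa higher in 7 of 8, exact permutation, adjusted p = 0.088). Neither scale counts exon reads alone, since the counts cover the whole assembled locus. Differences between libraries for 1 gene do not depend on this length.

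**Figure D1:**
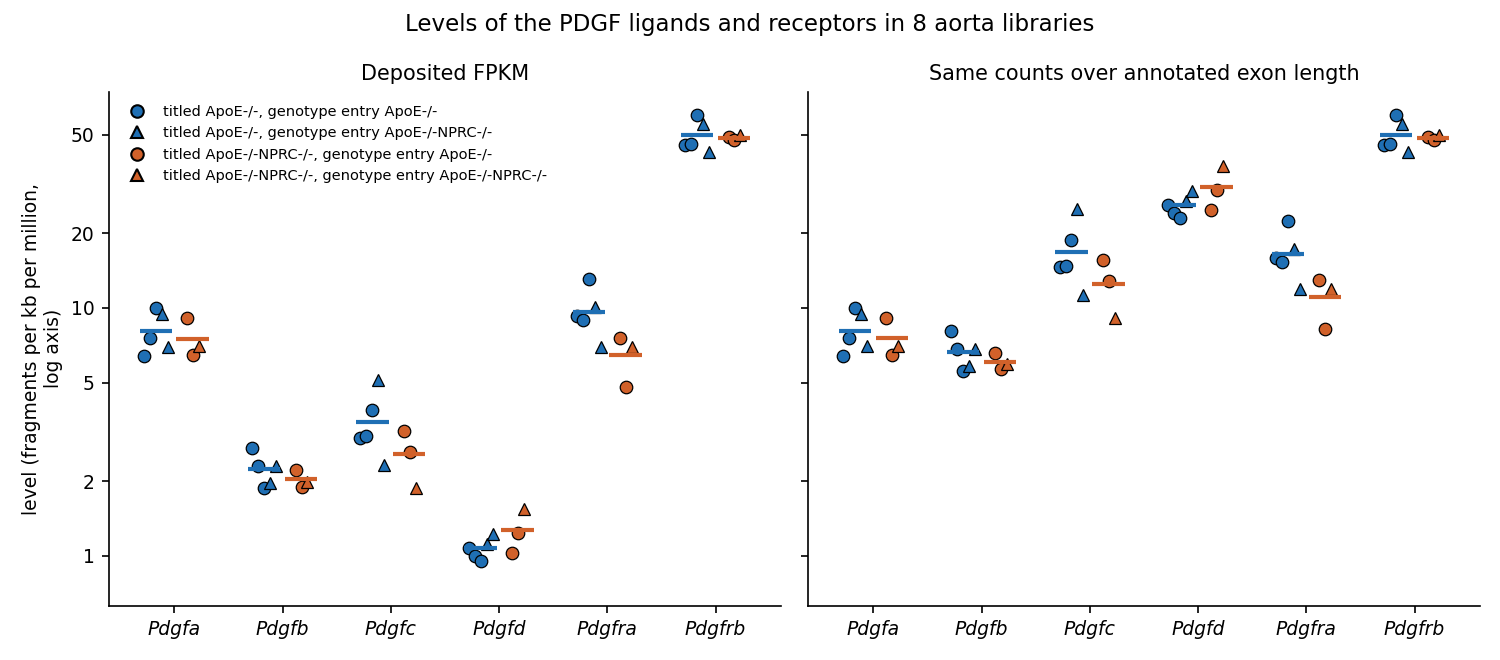
Level of each PDGF ligand and receptor gene in each of the 8 aorta libraries, as deposited FPKM (left) and with the same counts divided by annotated exon length (right), on a log axis; colour gives the title, symbol shape the genotype entry, and horizontal lines the mean of each titled group. Pdgfd is lowest on the left at a mean of 1.15 and second highest on the right at 27.7, and within every gene the 2 colours overlap. The right panel divides counts of the whole assembled locus, 76.1 kb for Pdgfd, by 3.15 kb of annotated exon, so 27.7 is not a level of exon reads.

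None of the 6 members differed between the genotypes by title at an adjusted p under 0.05 (quasi-likelihood test of edgeR, Benjamini-Hochberg adjusted over 20506 loci), and this threshold was passed by 0.0% of all loci. None had an unadjusted p under 0.05, against 13.6% of all loci, and none met the criterion of the study, which asks for a fold over 2 or under 0.5 together with an unadjusted p under 0.05, against 3.47%. The titled groups overlapped for each of the 6 genes, while 7.41% of all loci had groups that did not overlap. By genotype entry the members also gave 0 of 6 on each count, where 0.0% of all loci passed the adjusted threshold, 1.31% had an unadjusted p under 0.05, 0.463% met the criterion of the study and 1.2% did not overlap. In the alternative analyses (20 for each gene, and 21 for Pdgfd) by other labels, tests, scalings, filters and left-out libraries, 0 of the 6 members reached an adjusted p under 0.05, including DESeq2, the edgeR exact test and limma. The intervals of the differences were wide, and for Pdgfa, Pdgfc, Pdgfd, Pdgfra and Pdgfrb by title they reached folds as far from 1 as 0.66, 0.46, 1.56, 0.45 and 0.74.

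**Figure D2:**
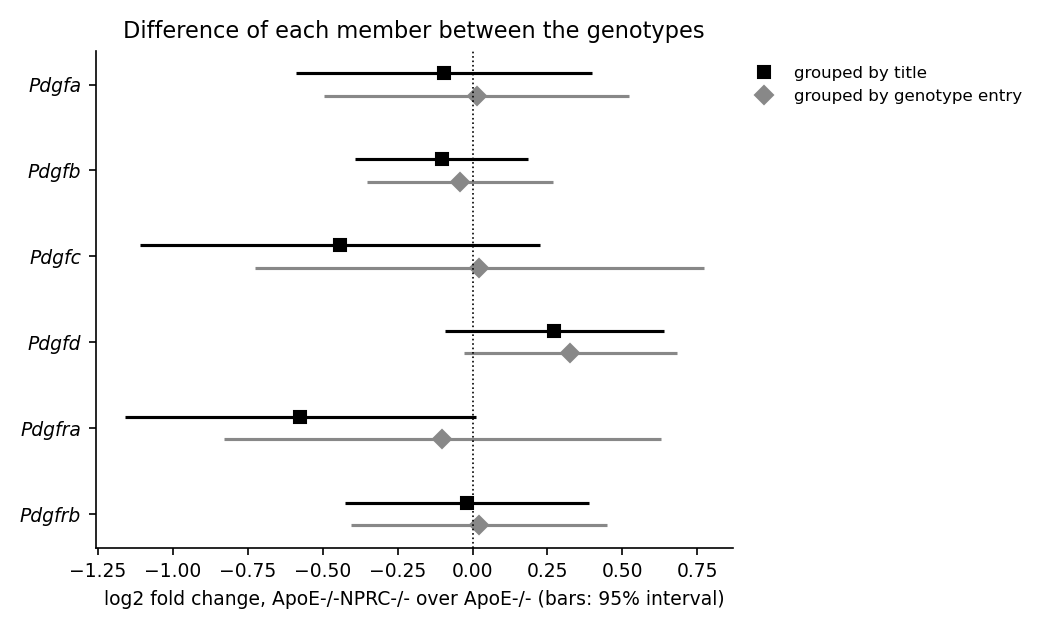
Log2 fold change of ApoE-/-NPRC-/- over ApoE-/- for each member (horizontal axis) with its 95% interval from edgeR, grouped by title (black squares) or by genotype entry (grey diamonds). All 12 intervals include 0, and Pdgfra by title, at -0.57, lies farthest from it.

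Pdgfra encodes the alpha receptor, which in the vessel wall marks fibroblasts and mesenchymal progenitors of the adventitia. Its FPKM was 9.31, 8.90, 13.11, 10.05 and 6.94 in ApoE-/- 1 to 5 and 7.58, 4.78 and 6.98 in ApoE-/-NPRC-/- 1 to 3. The highest value was that of ApoE-/- 3 and the lowest that of ApoE-/-NPRC-/- 2, and of the ApoE-/- libraries only number 5 lay within the range of the ApoE-/-NPRC-/- libraries. The group means were 9.66 ± 2.24 (SD, n = 5) and 6.45 ± 1.47 (SD, n = 3), a fold of 0.67 (log2 fold change -0.57, SE 0.26, 95% interval -1.16 to 0.011, adjusted p = 0.37, edgeR's quasi-likelihood test). The two-sided exact permutation test of the 5 and 3 libraries gave p = 0.089, and no p under 0.018 can be reached with these numbers. Grouping by genotype entry gave a log2 fold change of -0.10 (SE 0.32, adjusted p = 1.00). Without ApoE-/-NPRC-/- 2 it was -0.37 by title, and over all 20 alternatives it lay between -0.69 and -0.10, with an unadjusted p under 0.05 in 8 of them and a smallest adjusted p of 0.059. The locus also carries the name of the microRNA gene Mir7025, so its counts cannot be divided between the 2 names.

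Because Pdgfra had the largest difference of the family, the stretch before its transcription start is shown, from RefSeq on GRCm38.p6 (chr5:75152001-75152250, plus strand, 250 bases ending at the base before the start). Capitals mark GAGACC, the letters of the shear stress element first described in the promoter of the PDGF-B gene.
Pdgfra: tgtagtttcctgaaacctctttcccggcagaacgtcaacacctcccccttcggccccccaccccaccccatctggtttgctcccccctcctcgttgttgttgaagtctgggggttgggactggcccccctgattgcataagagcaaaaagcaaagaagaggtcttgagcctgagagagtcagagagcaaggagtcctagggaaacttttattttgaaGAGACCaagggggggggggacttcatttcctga
The match begins 33 bases before the RefSeq start, while the gene begins at 75152292 in GENCODE M21. Searched on both strands (GAGACC or GGTCTC), these letters occurred in 13.7% of the 32851 RefSeq windows of this length. A GC box (GGGCGG or CCGCCC), found in 32.7% of all windows, was absent from the Pdgfra window, and it was present in both Pdgfa windows. RefSeq windows were matched for 4 of the 6 members, Pdgfa, Pdgfc, Pdgfd and Pdgfra. A match is a string of letters only, and no binding was measured.

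Pdgfrb encodes the beta receptor of smooth muscle cells and pericytes. Its FPKM was 45.53, 45.92, 59.84, 54.99 and 42.53 in ApoE-/- 1 to 5 and 48.95, 47.40 and 49.78 in ApoE-/-NPRC-/- 1 to 3. The ApoE-/-NPRC-/- values sat in the middle of the ApoE-/- range. The log2 fold change was -0.019 by title (SE 0.18, 95% interval -0.43 to 0.39, adjusted p = 0.97, edgeR) and 0.021 by genotype entry (SE 0.19). A second locus with the name Pdgfrb lay on the opposite strand and overlapped none of its exons, and held 6.03% of the counts under the name.

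Since both receptors were measured in the same libraries, the level of Pdgfra was set against that of Pdgfrb within each library. The FPKM ratio of Pdgfra to Pdgfrb was 0.204, 0.194, 0.219, 0.183 and 0.163 in ApoE-/- 1 to 5 and 0.155, 0.101 and 0.140 in ApoE-/-NPRC-/- 1 to 3. Every library titled ApoE-/-NPRC-/- lay below every library titled ApoE-/-, although 0.155 and 0.163 were close. The ratio was looked at after the values of the genes were known and was given no test. The groups overlapped by genotype entry, with geometric means of 0.168 in ApoE-/- and 0.161 in ApoE-/-NPRC-/-. By title, the geometric mean of the ratio of Pdgfb to Pdgfrb was 0.0449 in ApoE-/- and 0.0417 in ApoE-/-NPRC-/-, and those groups overlapped.

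Among the ligands, Pdgfa, which signals only through the alpha receptor, had an FPKM of 6.41, 7.55, 9.97, 9.43 and 6.98 in ApoE-/- 1 to 5 and 9.09, 6.47 and 7.02 in ApoE-/-NPRC-/- 1 to 3. Each ApoE-/-NPRC-/- value lay within the ApoE-/- range. Its log2 fold change was -0.095 by title (SE 0.22, 95% interval -0.59 to 0.40, adjusted p = 0.87, edgeR) and 0.014 by genotype entry. The ratio of Pdgfa to Pdgfra was 0.84 in ApoE-/- and 1.18 in ApoE-/-NPRC-/- as geometric means by title, and the groups overlapped.

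Pdgfb, the endothelial and platelet ligand that recruits mural cells, was among the steadiest members, with an FPKM of 2.71, 2.31, 1.87, 1.97 and 2.31 in ApoE-/- 1 to 5 and 2.22, 1.9 and 1.99 in ApoE-/-NPRC-/- 1 to 3. Again the ApoE-/-NPRC-/- values all lay within the ApoE-/- range. The log2 fold change was -0.10 by title (SE 0.13, 95% interval -0.39 to 0.18, adjusted p = 0.74, edgeR) and -0.042 by genotype entry, and it was negative in all 20 alternatives, but -0.024 without ApoE-/-NPRC-/- 2 and -0.039 without ApoE-/- 1. Of the platelet and megakaryocyte markers, Pf4 was highest at 5.20 FPKM, and the summed FPKM of 5 markers was 6.87 to 15.9 in ApoE-/- and 7.53 to 10.1 in ApoE-/-NPRC-/-.

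Pdgfc, a latent ligand that tissue plasminogen activator can release, varied most among the ligands. Its FPKM was 2.99, 3.03, 3.87, 5.13 and 2.32 in ApoE-/- 1 to 5 and 3.19, 2.63 and 1.87 in ApoE-/-NPRC-/- 1 to 3. The highest and lowest libraries, ApoE-/- 4 and ApoE-/-NPRC-/- 3, differed 2.74-fold. The log2 fold change was -0.44 by title (SE 0.29, 95% interval -1.11 to 0.22, adjusted p = 0.53, edgeR) and 0.023 by genotype entry, and without ApoE-/- 4 it was -0.22. A second Pdgfc locus on the same strand lay within the gene but overlapped none of its exons, held 10.0% of the counts under the name, and had a log2 fold change of -0.44 by title (SE 0.19, adjusted p = 0.36, edgeR), the only further locus with a member's name whose unadjusted p was under 0.05.

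Pdgfd encodes the other latent ligand, which urokinase and matriptase can release and which acts on the beta receptor. Reads under its name fell mostly on loci that are not the gene as annotated. Of 5 loci named Pdgfd, the one with most counts, 64.2% of them, was a minus-strand locus from 6175209 to 6251380 on chromosome 9 with 1 assembled transcript, which overlapped 0 of the 12 annotated exon intervals. Pdgfd is transcribed from the plus strand, and the plus-strand locus, which contains all 12, held 19.6% of the counts. The plus-strand locus was therefore used as Pdgfd, and the minus-strand locus is given beside it. The libraries were made with dUTP, which keeps the strand, but the strand setting of the mapping and counting is not given in the sources used here, so sense and antisense reads may not have been fully separated. The assembled length behind the FPKM was 76.1 kb for the plus-strand locus and also 76.1 kb for the minus-strand locus with most counts. In the whole table, 280 of 41186 gene names had their largest locus on the strand opposite to the annotated gene.

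**Figure D3:**
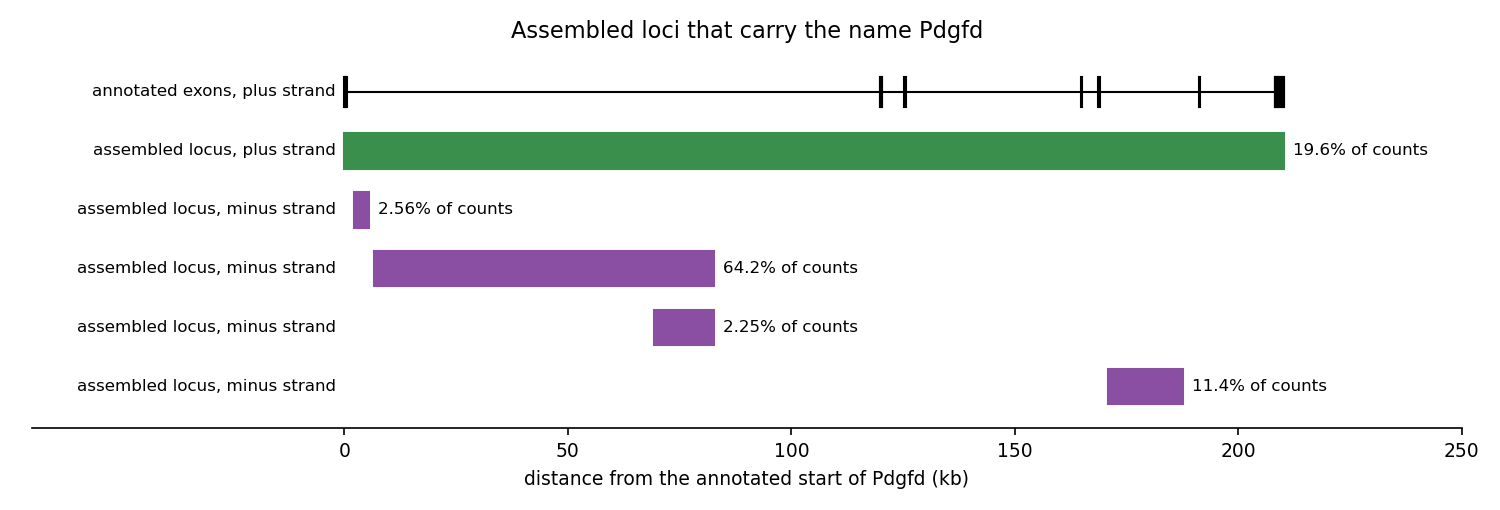
Loci named Pdgfd in the deposited table, drawn by distance from the annotated start of the gene (kb); black blocks are annotated exons, the green bar the plus-strand locus and the purple bars the minus-strand loci, each with its share of the counts under the name. The minus-strand locus with 64.2% of the counts lies between exons, within the long first part of the gene.

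The 250 bases before the RefSeq start of Pdgfd, a gene annotated on the plus strand, are shown (GRCm38.p6, chr9:6168236-6168485). Capitals mark TATAAA, the core letters of a TATA box, which occurred (as TATAAA or TTTATA) in 12.4% of the 32851 windows.
Pdgfd: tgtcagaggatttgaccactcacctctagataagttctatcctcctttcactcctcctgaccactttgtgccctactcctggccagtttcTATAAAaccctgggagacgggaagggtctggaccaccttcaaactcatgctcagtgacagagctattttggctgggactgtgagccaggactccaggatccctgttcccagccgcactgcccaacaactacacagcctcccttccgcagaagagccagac
The match begins 160 bases before the RefSeq start. In the deposited table the Pdgfd locus begins at 6168584, where the gene begins in GENCODE M21. That start lies downstream of the RefSeq start, so the window does not reach it.

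On the plus-strand locus, the FPKM of Pdgfd was 1.08, 1.00, 0.95, 1.12 and 1.22 in ApoE-/- 1 to 5 and 1.03, 1.24 and 1.54 in ApoE-/-NPRC-/- 1 to 3. The highest library was ApoE-/-NPRC-/- 3, whereas ApoE-/-NPRC-/- 1 lay among the ApoE-/- libraries. The log2 fold change was 0.27 by title (SE 0.16, 95% interval -0.092 to 0.64, adjusted p = 0.47, edgeR) and 0.33 by genotype entry (SE 0.16, adjusted p = 1.00, edgeR; two-sided exact permutation p = 0.054). It was positive in all 21 alternatives, but ranged from 0.080 without ApoE-/-NPRC-/- 3 to 0.70 in the 4 libraries whose title and genotype entry name the same genotype, of which that library is the only ApoE-/-NPRC-/- one. On the minus-strand locus the FPKM was 3.92, 3.05, 3.01, 2.99 and 5.32 in ApoE-/- 1 to 5 and 3.61, 3.94 and 4.25 in ApoE-/-NPRC-/- 1 to 3. There ApoE-/- 5 was highest, and the log2 fold change was 0.14 by title (SE 0.19, adjusted p = 0.77, edgeR). The log2 CPM (counts scaled to library size) of the 2 loci had a Pearson r of 0.60 over the 8 libraries (exact permutation p = 0.12; Spearman rho 0.62, p = 0.11), and 0.47 without ApoE-/-NPRC-/- 2 and 3.

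Pdgfa, Pdgfc, Pdgfra and Pdgfrb tended to be high in the same libraries, ApoE-/- 3 and 4, whereas Pdgfb and Pdgfd were not. Of the 15 pairs of members, Pdgfa and Pdgfrb had the largest r of log2 CPM over 8 libraries, 0.85 (Spearman rho 0.86), with an exact permutation p of 0.0077 and an adjusted p of 0.12 over the 15 pairs. Without ApoE-/- 3 and 4 this r was 0.50, so it rested in large part on those libraries. For Pdgfa with Pdgfc r was 0.76, for Pdgfa with Pdgfra 0.72, and for Pdgfc with Pdgfra 0.68 (exact permutation, adjusted p = 0.19, 0.19 and 0.20). Pdgfb had a negative r with Pdgfa, Pdgfc, Pdgfd and Pdgfrb, between -0.49 and -0.14, and none of the 15 pairs passed an adjusted p of 0.05 (exact permutation).

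A whole aorta holds several cell types, and fewer cells of a type cannot be told apart from less RNA per cell. By title, the 8 smooth muscle markers all had an unadjusted p under 0.05 and higher values in ApoE-/-NPRC-/- (median log2 fold change 0.75, all loci -0.006), against 6.51% of all loci that were higher in this way, and their summed FPKM was 1355 to 1809 in ApoE-/- and 1742 to 3000 in ApoE-/-NPRC-/-. Of the 8 fibroblast markers 2 had an unadjusted p under 0.05, both lower (median -0.85), against 7.13% of all loci that were lower, and the sums were 827 to 2082 and 469 to 1176. Of the 8 macrophage markers 5 were lower at an unadjusted p under 0.05 (median -0.97), with sums of 263 to 785 and 128 to 344. The 7 endothelial markers gave 0 such genes (median -0.085), with sums of 90.6 to 101 and 85.6 to 98.8. Of the tested pericyte markers 1 of 5 was higher (median 0.27), and of the tested Schwann cell markers 3 of 5 were lower (median -0.69), the sums being 10.9 to 14.5 and 7.09 to 8.78 with no overlap. None of these markers had an adjusted p under 0.05 by edgeR, and by genotype entry 0 of them had an unadjusted p under 0.05. The most abundant marker was Acta2 for smooth muscle at a mean of 1249 FPKM, Col1a1 for fibroblasts at 411, C1qb for macrophages at 203, Rgs5 for pericytes at 201, Vwf for endothelium at 32.9 and S100b for Schwann cells at 4.99, so the labelled tissue carried its defining genes. Ucp1 and other adipocyte genes were also present, with a summed FPKM of 112 to 535. Of the mesothelial markers 0 of 5 were tested, and their summed FPKM was 5.57 in ApoE-/- 2 and 0.15 to 0.87 in the other libraries. Of the skeletal muscle markers 3 of 5 were tested, led by Acta1 at 1.84 FPKM. Their summed FPKM was 0.95, 0.86 and 0.53 in ApoE-/- 2, 3 and 4, but 5.58 and 7.46 in ApoE-/- 1 and 5 and 7.22, 6.46 and 4.42 in ApoE-/-NPRC-/- 1 to 3.

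Each member was compared with the mean log2 CPM of each marker list over the 8 libraries, which gave 54 pairs with the 9 lists that had tested markers. Of these pairs, Pdgfra and the fibroblast markers had the largest r, with a Pearson r of 0.96 (exact permutation p = 0.00057, adjusted p = 0.031 over 54 pairs; Spearman rho 0.95, adjusted p = 0.062), and r was 0.85 without ApoE-/-NPRC-/- 2 and ApoE-/- 3. For Pdgfra r was also 0.83 with the macrophage markers (exact permutation, adjusted p = 0.14; Spearman rho 0.90), and 0.94 without ApoE-/- 3 and ApoE-/-NPRC-/- 3. With the skeletal muscle markers r was -0.74 for Pdgfra and -0.73 for Pdgfc (exact permutation, adjusted p = 0.22 for each), and with the Schwann cell markers it was 0.68 for Pdgfra (exact permutation, adjusted p = 0.22). Relative to the mean of the 8 fibroblast markers Pdgfra was not lower by title: the difference of log2 CPM between Pdgfra and this mean was -1.55 ± 0.13 (SD, n = 5) in ApoE-/- and -1.39 ± 0.14 (SD, n = 3) in ApoE-/-NPRC-/-, and the groups overlapped. The fibroblast marker mean itself differed by -0.71 between these groups. Its markers were not alike, with 7 log2 fold changes below 0 by title and 1 above. Lum was at -1.21 and Col1a1 at -1.02, but Pi16 was at -0.29 and Serpinf1 at 0.071, both above the -0.57 of Pdgfra. The part of any of these marker levels in the Pdgfra difference was not tested.

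Other members stood beside other lists, and none of these further pairs passed an adjusted p of 0.05 by exact permutation. For Pdgfc and the macrophage markers r was 0.89 (adjusted p = 0.11), and 0.83 without ApoE-/- 3 and ApoE-/-NPRC-/- 3. The log2 CPM of Pdgfc minus the mean of these markers was -0.77 ± 0.23 (SD, n = 5) in ApoE-/- and -0.17 ± 0.26 (SD, n = 3) in ApoE-/-NPRC-/-, so Pdgfc stood higher relative to them in every library titled ApoE-/-NPRC-/-, a difference that was given no test and that overlapped by genotype entry. For Pdgfrb and the pericyte markers, a list that does not hold Pdgfrb, r was 0.86 (adjusted p = 0.12), and Pdgfa had an r of 0.84 with the same list (adjusted p = 0.16). With the smooth muscle markers, r was 0.13 for Pdgfrb (adjusted p = 0.84). The 5 tested pericyte markers did not move as 1 set by title. Of them 3 had log2 fold changes above 0 and 2 below, from 0.57 for Rgs5 to -0.26 for Kcnj8. Which cells expressed Pdgfrb was not measured, and neither r assigns it to a cell type. The log2 CPM of Pdgfrb minus the mean of the pericyte markers was 0.28 ± 0.063 (SD, n = 5) in ApoE-/- and 0.077 ± 0.15 (SD, n = 3) in ApoE-/-NPRC-/-. Every library titled ApoE-/-NPRC-/- lay lower on this measure, a difference that was given no test and that overlapped by genotype entry. Pdgfrb minus the mean of the smooth muscle markers was -0.48 ± 0.30 (SD, n = 5) in ApoE-/- and -1.20 ± 0.44 (SD, n = 3) in ApoE-/-NPRC-/-. On that measure the titled groups overlapped. For Pdgfb and the endothelial markers r was 0.77 (exact permutation, adjusted p = 0.16, Spearman rho 0.88). With the 3 tested platelet and megakaryocyte markers it was 0.64 (exact permutation, adjusted p = 0.27, Spearman rho 0.81), and 0.28 without ApoE-/- 3 and ApoE-/-NPRC-/- 2. Which cells expressed Pdgfb was not measured, and neither of these values assigns it to a cell type. Pdgfd went with the smooth muscle markers at 0.78 (adjusted p = 0.16), but r was -0.12 without ApoE-/-NPRC-/- 2 and 3, so this relation rested on those 2 libraries. By title, Pdgfd minus the mean of the smooth muscle markers was -2.21 ± 0.22 (SD, n = 5) in ApoE-/- and -2.68 ± 0.23 (SD, n = 3) in ApoE-/-NPRC-/-. Pdgfb minus the mean of the endothelial markers was -1.47 ± 0.11 and -1.49 ± 0.071. The titled groups overlapped for each of these measures.

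**Figure D4:**
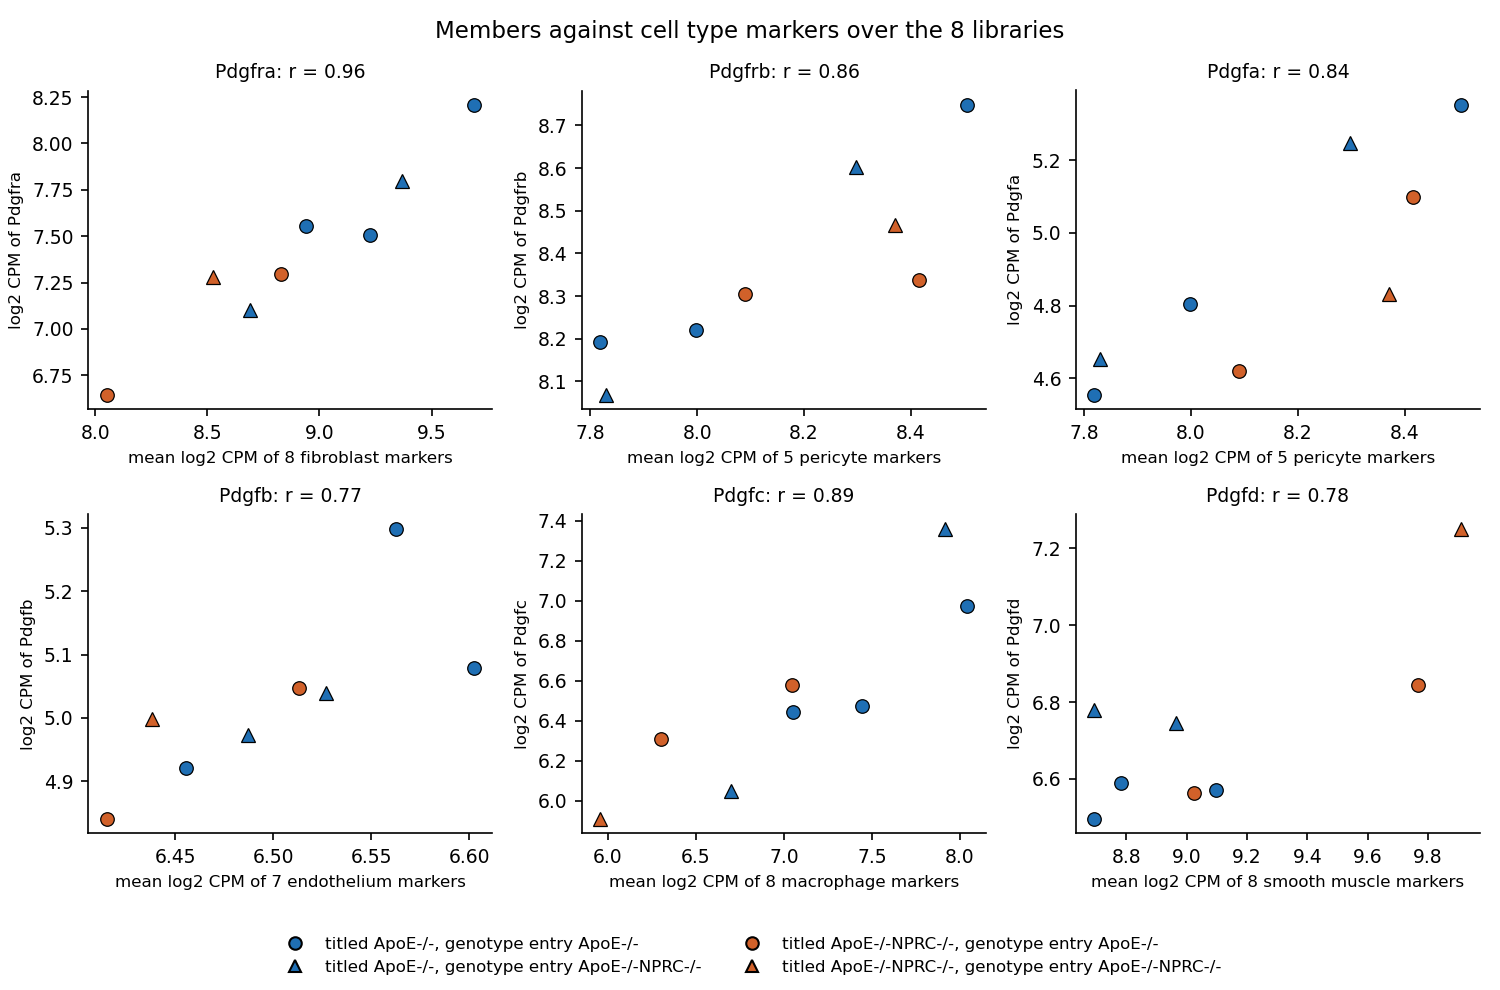
Log2 CPM of a member (vertical axis) against the mean log2 CPM of a marker list (horizontal axis) in the 8 libraries, with colour for the title, symbol shape for the genotype entry and Pearson r above each panel. Pdgfra lies along the fibroblast markers in all 8 libraries (r = 0.96), whereas the panel of Pdgfd depends on ApoE-/-NPRC-/- 2 and 3 at the right.

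The genes whose log2 CPM was most like that of a member over the 8 libraries were taken from loci with 1 gene name and a mean of at least 5 FPKM, of which there were 3758 or 3759 beside the member. For Pdgfra they were Hist1h4k (r = 0.98), Olfm1 (0.98) and the collagen gene Col1a1 (0.97). For Pdgfrb they were Syt11 (0.99), Got2 (0.98) and Aebp1 (0.97), and for Pdgfa Lztr1 (0.99), Atp13a1 (0.98) and Rbck1 (0.97). For Pdgfc they were Mtmr10, Usp4 and Fam91a1 (0.99, 0.99 and 0.98), and for Pdgfd Lhfp, Ankrd46 and Map3k20 (0.97, 0.97 and 0.96). Pdgfb had no such close companion, with Arpc5 (0.84), Gm43275 (0.80) and Chd1 (0.80) as the nearest. These are the highest of those 3758 or 3759 values over 8 libraries and are descriptions only.

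Beyond the ligands and receptors, 83 genes that process, bind, transmit, limit or respond to PDGF signals, or belong to related families, were listed, and 77 were tested. By title, 19 of the 77 had an unadjusted p under 0.05, 17 of them lower and 2 higher in ApoE-/-NPRC-/-, which is 24.7% against 13.6% of all loci. The genes were listed with earlier results of these data known, so this excess is a description only. Csf1r, 1 of the 19, is also among the macrophage markers. The median log2 fold change of the 77 was -0.25 (all loci -0.006). Leaving aside the early response genes, the count was 11 of 67, a share nearer the 13.6% of all loci, with a median of -0.18. None of the 77 had an adjusted p under 0.05 by edgeR's quasi-likelihood test, while DESeq2 gave 6, the edgeR exact test 1 and limma with array weights 8. By genotype entry 0 of the 77 had an unadjusted p under 0.05, and the count by title was 8 without ApoE-/-NPRC-/- 2 or 3, 12 without ApoE-/- 2 or 3 and 11 without ApoE-/- 4.

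Upstream of the receptors, 6 of 7 processing proteases were tested and 1 had an unadjusted p under 0.05. This was Plau, the urokinase that can release PDGF-D, which had an FPKM of 16.2 ± 6.57 (SD, n = 5) in ApoE-/- and 7.39 ± 2.65 (SD, n = 3) in ApoE-/-NPRC-/- (log2 fold change -1.14, SE 0.40, adjusted p = 0.31, edgeR). Plat, which can release PDGF-C, was at 5.10 ± 0.711 and 5.98 ± 1.84. Of the 8 binding proteins and co-receptors, the neuropilin gene Nrp1 (log2 fold change -0.39, adjusted p = 0.35, edgeR) and Scube3 (0.46, adjusted p = 0.34) had an unadjusted p under 0.05. Sparc, whose product binds PDGF-B, was the most abundant of these at 274 FPKM, with a log2 fold change of -0.42 (adjusted p = 0.49, edgeR).

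Downstream of the receptors, 29 of 31 adaptors and effectors were tested, with a median log2 fold change of -0.11 by title and 3 genes at an unadjusted p under 0.05, all lower, which is a smaller share than the 13.6% of all loci. Among them were the adaptor gene Grb2 (-0.61) and Rasa1, which encodes a GTPase activator that turns Ras off (-0.40). Akt1, the most abundant of the list at 25.7 FPKM, had a log2 fold change of -0.16. Of the 14 brakes on the receptors, 2 had an unadjusted p under 0.05, a share near the 13.6% of all loci, and the median was -0.30. The phosphatase gene Ptpn6 (-1.02) and Spry2 (-0.62), an inhibitor of Ras signalling, had values below 0, and the MAPK phosphatase gene Dusp6, the most abundant at 13.9 FPKM, was at -0.64 (adjusted p = 0.37, edgeR). Ptpn6 is also a gene of blood cells, and the macrophage markers had lower values in the same libraries, whose part in this was not tested.

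Genes that PDGF is known to induce early in cultured fibroblasts had the lowest median log2 fold change of the 7 lists by title. PDGF activity itself was not measured, so these genes are not a reading of it. Of 11 such genes 10 were tested, all 10 had values below 0 by title, 8 had an unadjusted p under 0.05 and 7 met the criterion of the study, with a median log2 fold change of -1.39. Of all 20506 tested loci, 10434 had values below 0. The share of all loci that were lower at an unadjusted p under 0.05 was 7.13%, and 3.47% met the criterion of the study. The 4 with the smallest p were Jun (-0.70), Ccl7, whose locus also holds Ccl11 (-1.25), Cxcl1 (-1.51) and Fos (-2.03), and the adjusted p was 0.26 for the first 3 and 0.31 for Fos (edgeR). Junb, the most abundant at 43.4 FPKM, was at 58.4 ± 39.4 (SD, n = 5) in ApoE-/- and 18.3 ± 6.13 (SD, n = 3) in ApoE-/-NPRC-/-. The summed FPKM of the list was 111, 361, 380, 219 and 86.3 in ApoE-/- 1 to 5 and 89.2, 71.7 and 95.2 in ApoE-/-NPRC-/- 1 to 3. ApoE-/- 2, 3 and 4 thus stood apart from the other 5 libraries, among which ApoE-/- 5 lay within the range of ApoE-/-NPRC-/-. The same 3 libraries had the lowest skeletal muscle sums, the highest macrophage sums (520, 785 and 742, against 128 to 344 in the other 5) and the highest fibroblast sums (1370, 2082 and 1977, against 469 to 1176), and the part of these in the early gene values was not tested. By genotype entry 0 of the 10 had an unadjusted p under 0.05 (median -0.40).

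In the related families, the 5 genes of the vascular endothelial growth factor subfamily had a median log2 fold change of 0.11, and Vegfd, whose locus also holds Pir, was at 0.31 with groups that did not overlap by title (adjusted p = 0.31, edgeR), while Vegfb, the most abundant at 8.24 FPKM, was at 0.072. Of the other receptor kinases of the same class and their ligands, 5 of 7 were tested and had a median of -0.58. That median is the value of the Flt3l locus, which also holds Rpl13a, Snord33 and Mir5121, so its counts cannot be credited to Flt3l alone. Csf1r, the colony-stimulating factor receptor of macrophages, was highest at 25.2 FPKM and had a log2 fold change of -0.93 (SE 0.29, adjusted p = 0.28, edgeR), and Kitl, the ligand of Kit, was at -0.87 (SE 0.25, adjusted p = 0.27). By genotype entry these were -0.23 and 0.13.

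**Figure D5:**
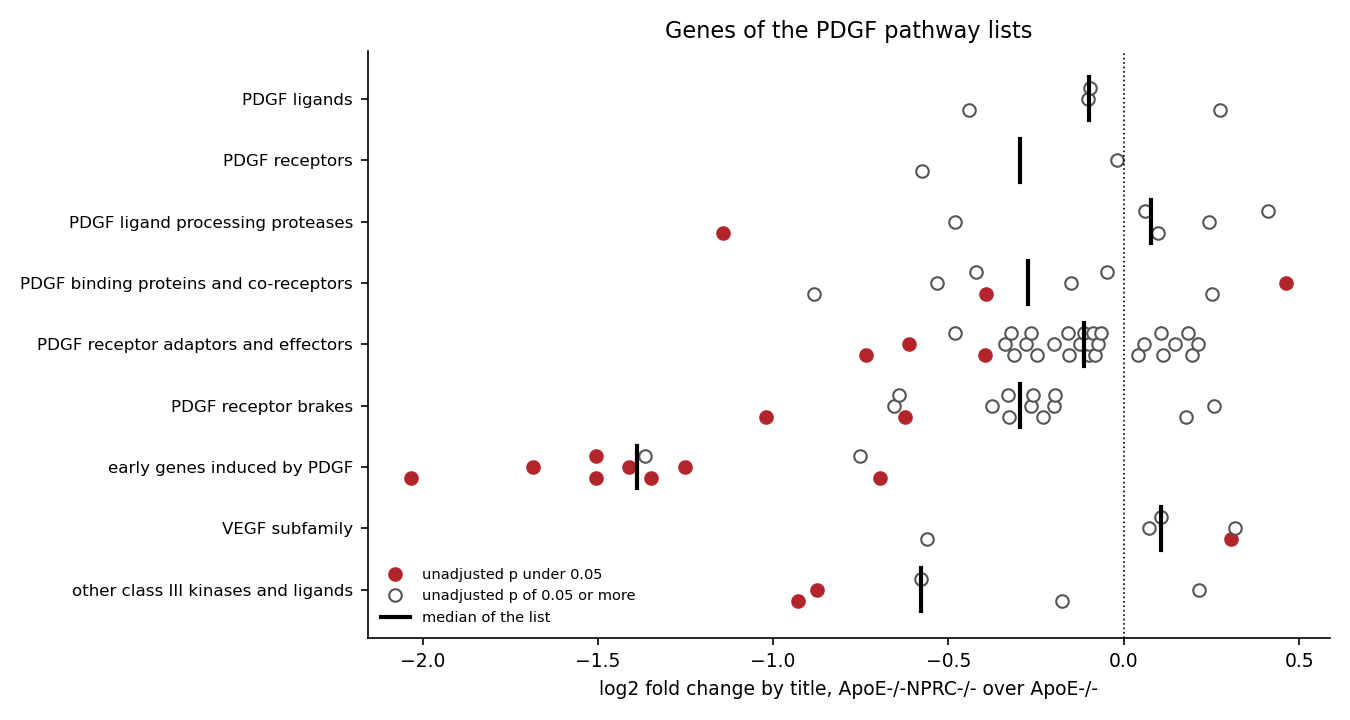
Log2 fold change by title of ApoE-/-NPRC-/- over ApoE-/- (horizontal axis) for each tested gene of the 9 lists, with filled points for an unadjusted p under 0.05 and a black bar at the median of each list. The ligand and receptor rows hold no filled point, and the early genes lie lowest, with a median of -1.39.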

How the data were processed

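Poly(A) RNA of 8 whole aortas was sequenced as paired reads. The authors trimmed the reads (cutadapt 1.9 in the submitters' processing notes), used HISAT2 for mapping and StringTie for assembly, on GRCm38 per the labels. The deposited counts are whole numbers per assembled locus, not normalized, and the FPKM values deposited by the authors are scaled to assembled length and to library depth. The table had 0 columns of values without a sample. Total counts were 62969165 to 86693276, and counting error is therefore small beside the spread between libraries (biological coefficient of variation 0.327). The number of libraries limits the precision.

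The members and gene lists were chosen with earlier results of these data known. A member was the locus with the most counts among those with its name on the strand annotated in GENCODE M21. The rule as given, without regard to strand, picks the same loci except for Pdgfd. The 20506 loci that reached 1 FPKM in 3 or more libraries entered the test in edgeR 4.0.16 under R 4.3.3 (TMM, quasi-likelihood test, Benjamini-Hochberg adjustment). DESeq2 1.42.0 and limma 3.58.1 on log2(FPKM + 1) were alternatives, as were labels, scaling, filter, replicate block, left-out libraries and summed loci. The code was tested on simulated data. Permutation tests were exact and two-sided (scipy 1.17.1). Assembled lengths were calibrated on 164 loci, where the ratio to the annotated length had 5th and 95th percentiles of 0.9998 and 1.0005. The genes named are the 6 members, Npr3, from each pathway list the most abundant gene and at most 4 with the smallest unadjusted p under 0.05, the 3 most similar genes per member and the most abundant marker of each list. Plat was added after its values were seen. The result of 1 gene that this rule names is not reported here. Of the markers, those of platelets had 3 of 5 tested and 0 with an unadjusted p under 0.05, and those of adipocytes 5 of 6 and 0. Columns of the authors' own comparisons were not used.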

Additional observations from a re-analysis of the deposited data

Results flagged for a closer look

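In groups of 5 libraries, a library was singled out where its gap to the nearest other one was a large share of the range of the group. The log2 CPM of Pdgfd in ApoE-/-NPRC-/- 2 was 6.84 among the libraries entered as ApoE-/-, where the next highest was 6.59. The log2 CPM of Pdgfrb in ApoE-/- 3 was 8.75 in the same group, where the next highest was 8.34. Of 32 groups examined these were 2, and chance alone gives about 1.6. The titled groups had no such library.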

How the results depend on the processing

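With 5 libraries against 3, only large differences could pass the adjustment over all loci. Pdgfb kept a negative, Pdgfra a negative and Pdgfd a positive log2 fold change in every alternative. Grouping by genotype entry reversed Pdgfa (0.014), Pdgfc (0.023) and Pdgfrb (0.021). Pdgfrb was also 0.056 in the 4 libraries with matching labels and 0.0030 with all its loci summed. With 1 library left out, Pdgfa ranged from -0.23 to 0.037 and Pdgfrb from -0.090 to 0.10. The cause was not tested. The loci that met the criterion of the study numbered 712, but 95 by genotype entry, 1815 in those 4 libraries (where the lone ApoE-/-NPRC-/- library is assumed to vary like the others), 2287 without the filter on low values, which tests more loci, 175 with limma on log2(FPKM + 1), and 403 to 1635 with 1 library left out. An adjusted p under 0.05 was found for 0 loci, but for 14 in the 4 libraries, 650 with DESeq2, 190 with the edgeR exact test, 2 with limma, 1168 with limma and array weights, and 0 to 45 with 1 library left out. Of the 77 pathway genes, 19 had an unadjusted p under 0.05, but 0 by genotype entry, 11 in the 4 libraries, 40 with array weights, and 8 to 27 with 1 library left out. Their adjusted count of 0 became 6 with DESeq2, 1 with the exact test and 8 with array weights. Taking the largest locus whatever its strand gave 18 pathway genes, an alternative chosen after seeing the data, like the use of annotated exon length. Replicate numbers did not pair the libraries: deviations from the group means correlated at -0.27 to -0.01 between same-numbered libraries. In the 6 libraries numbered 1 to 3, 800 loci met the criterion with the replicate block and 917 without it. An adjusted p under 0.05 was found for 0 with the block and 1 without it, and Pdgfra was at -0.68 and -0.69.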
